A study of Mus musculus with 24 samples.

Results

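The cytosolic ribosomal protein genes were taken by name, as the protein-coding genes with an Rpl or Rps symbol followed by a number, together with Rpsa, Rplp0, Rplp1 and Rplp2, and without the S6 kinase genes. A mean of at least 1 CPM, the count scaled to library size, over the libraries used was required. The rule gave 76 genes of the 41388 in the files, 31 of the small and 45 of the large ribosomal subunit, and all 76 were tested. The rule itself uses no measured difference between groups, but the members were chosen with earlier results of these data known. Of 80 protein-coding genes with such a name, Rpl3l, Rpl10l, Rpl39l and Rpl24 fell under the level, at 0.0619, 0.109, 0.494 and 0.219 CPM. Rpl24 shares its span and strand with another listed gene, Gm28037, so its reads could not be assigned with certainty. Rps4l and Rpl6l carry matching names but are annotated as pseudogenes.

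The libraries were made from mouse liver RNA by oligo-dT priming, and each library is taken as 1 mouse only as far as its title number says. The groups were fasted and fed mice with a liver-specific knockout (KO) of Gpt2, the gene of alanine transaminase 2, and fasted and fed mice with the floxed allele, labelled fl/fl and control. Fasted mice had no food for 18 h, and fed mice ate freely. After a truncated file of the fl/fl fed group and a fl/fl fasted library with kidney-like expression were left out, 6 KO fasted, 6 KO fed, 5 fl/fl fasted and 5 fl/fl fed libraries remained. The sources used here give neither the age of the mice nor the driver of the recombinase. The design text calls the unaltered mice wild type, whereas the titles call them fl/fl.

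Each ribosome holds a set of small proteins on a scaffold of ribosomal RNA, and nearly every protein is present once per ribosome. Their mRNAs are among the most abundant of any cell, and most begin with a tract of C and T bases directly at the start, the terminal oligopyrimidine tract. Through this tract the mTORC1 kinase pathway, which senses amino acids and insulin, controls how much of these mRNAs is translated and, through LARP1, how stable they are. Liver loses protein and ribosomes during a fast. Messenger RNA counts show the abundance of the mRNA and not how much of it is translated.

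The letters around the start were read from the RefSeq table of mouse starts (build GRCm38.p6), which matched 56 of the 76 genes. The windows below run 5′ to 3′ over 25 bases before and 25 bases from the listed start, and capitals mark every run of at least 6 C or T bases. The first 5 are the genes that passed the test for fasting averaged over both genotypes, Rplp0 is a common reference gene, and the last 4 are members with a long tract at the listed start.

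Rps4x, chrX:102189367-102189416, minus strand: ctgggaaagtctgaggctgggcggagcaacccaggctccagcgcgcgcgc
Rpsa, chr9:120127741-120127790, plus strand: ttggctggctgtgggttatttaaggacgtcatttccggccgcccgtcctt
Rps12, chr10:23787185-23787234, minus strand: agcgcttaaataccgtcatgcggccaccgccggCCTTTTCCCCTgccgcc
Rpl13, chr8:123102325-123102374, plus strand: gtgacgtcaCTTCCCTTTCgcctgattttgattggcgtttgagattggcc
Rpl27a, chr7:109519170-109519219, plus strand: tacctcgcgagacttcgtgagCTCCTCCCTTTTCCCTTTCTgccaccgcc
Rplp0, chr5:115559442-115559491, plus strand: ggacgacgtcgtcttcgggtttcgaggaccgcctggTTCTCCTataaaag
Rps6, chr4:86857343-86857392, minus strand: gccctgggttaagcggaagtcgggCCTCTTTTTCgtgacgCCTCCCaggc
Rpl28, chr7:4792940-4792989, plus strand: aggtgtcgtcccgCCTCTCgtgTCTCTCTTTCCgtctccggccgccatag
Rpl15, chr14:18270962-18271011, minus strand: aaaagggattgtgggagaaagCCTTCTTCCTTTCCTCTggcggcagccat
Rps10, chr17:27635220-27635269, minus strand: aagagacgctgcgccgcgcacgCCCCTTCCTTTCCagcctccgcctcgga

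A C or T run of at least 8 bases over, or within 5 bases of, the listed start was present in 23 of the 56 matched genes (41.1%), against 11% of all 27025 genes in the table. Anywhere in the 50 bases the shares were 55.4% and 22.3%. A listed start on C followed by at least 4 C or T bases was found in 13 genes (23.2%), against 3.01% of all genes. The letters CCGGAAG, on either strand of the 300 bases from 250 before to 50 after the start, were held by 42.9% of the matched genes, against 9.93% of all genes. The nested letters TTCCGG were held by 57.1% and 16.7%, and CTCTTTC by 30.4% and 9.28%. TATAAA was held by 10.7% of the matched genes and 15.7% of all genes. In Rpl27a, Rpl15 and Rps10 the run crosses the listed start, whereas in Rps12 it lies downstream of it. These matches are letters in a window and no measure of start use in these livers.

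Assigned reads per library ran between 18390437 and 55284550. Gpt2 averaged 112 CPM in KO fasted and 60.5 CPM in KO fed livers, against 697 CPM in fl/fl fasted and 370 CPM in fl/fl fed livers, with no overlap between genotypes under either feeding state. The CPM of single genes here and below are scaled by the trimmed mean of M values (TMM), which equalises the bulk of genes between libraries, except in the library left out. The 9 hepatocyte markers found in the files were all present, and none of 10 kidney markers reached a mean of 1 CPM. Without that scaling the kidney markers summed to 18.8 CPM in fl/fl fasted replicate 5. In the other libraries used the sum was at most 5.45 CPM. The fl/fl fasted library left out had 123 CPM of Alb and 7041 CPM of Kap without that scaling, a kidney androgen-regulated gene. The KO fasted replicate 2 and the KO fed replicate 5 had 6.87% and 6.98% of reads in mitochondrial genes, whereas the other 20 libraries had between 3.45% and 5.05%. Fewer cells of a type and less RNA per cell cannot be told apart in such bulk tissue.

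Per kilobase of the deposited length, ribosomal protein mRNAs spanned 89.8-fold, while the group means of any single gene lay close together. In CPM, which are not divided by length, the span was 18.8-fold. Rplp1, an acidic protein of the stalk that recruits elongation factors, was highest with 728, 795, 762 and 955 RPKM, that is, TMM-scaled CPM per kilobase of transcript, in KO fasted, KO fed, fl/fl fasted and fl/fl fed livers. Rpl36 and Rpl8, proteins of the large subunit, followed with means of 353 and 343 RPKM over the libraries. Rps15a, Rps19 and Rpl35a were lowest with 8.97, 13.4 and 20.9 RPKM. The deposited length adds up all annotated exons, 6262 bases for Rps15a, 4685 for Rps19 and 404 for Rpl36. The shortest principal mRNA in the annotation has 640 bases for Rps15a and 633 for Rps19. On that length the means were 87.8 and 99.3 RPKM. Their place in the order, and with it the 89.8-fold span, thus depends on the length used. The median member lay at 84.3 RPKM. The files also hold 249 named ribosomal protein pseudogenes, 75 of them at 1 CPM or more. Whether reads shared with such copies lower the level of single members was not tested.

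**Figure D1:**
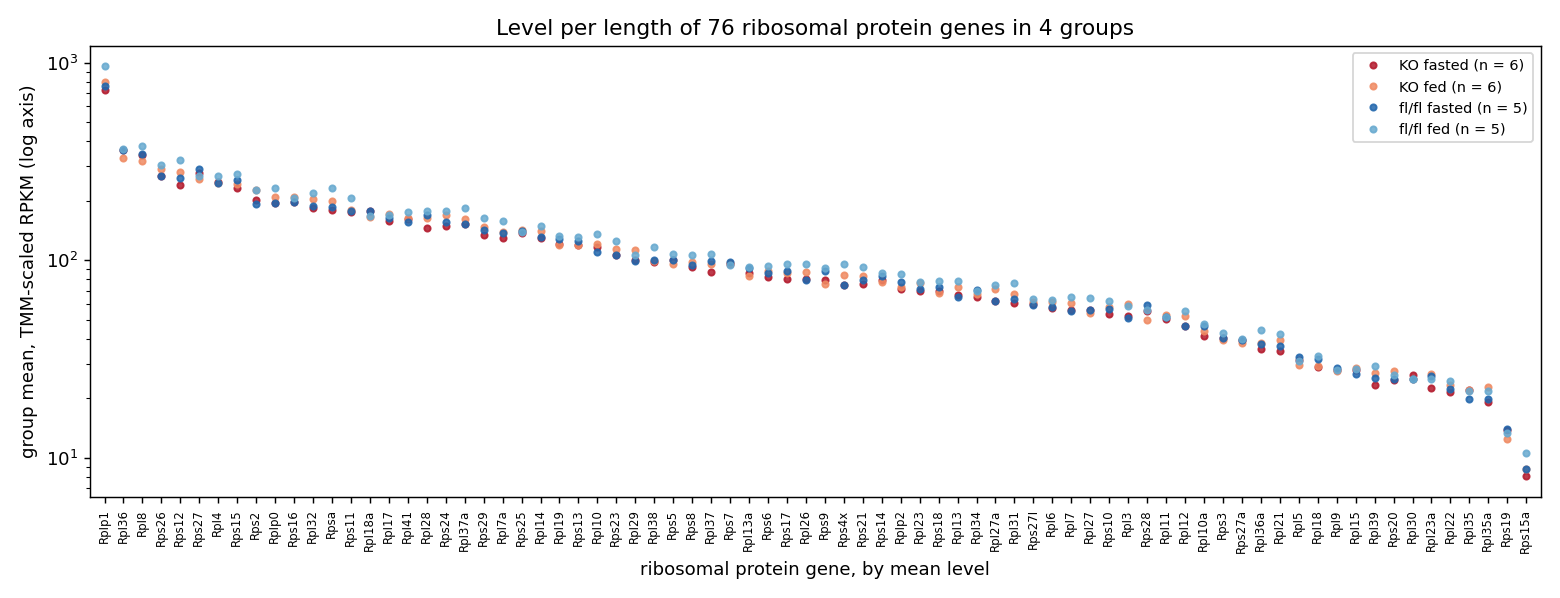
Group means of TMM-scaled RPKM on the deposited length (log axis) for each of the 76 genes, ordered by mean level, with 6 KO fasted, 6 KO fed, 5 fl/fl fasted and 5 fl/fl fed libraries. The 4 points of a gene lie close together compared with the span from Rps15a at 8.97 to Rplp1 at 806 RPKM. That span depends on the length used.

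Together the 76 genes took 0.996 ± 0.0587% of assigned reads in KO fasted (SD, n = 6), 1.09 ± 0.0926% in KO fed (n = 6), 1.02 ± 0.127% in fl/fl fasted (n = 5) and 1.14 ± 0.119% in fl/fl fed livers (n = 5). The ranges overlapped in every pair of groups. Those of KO fasted and fl/fl fed livers overlapped through fl/fl fed replicate 5 alone, which held 0.937% while the other fl/fl fed libraries held 1.16 to 1.23%. In the fl/fl fasted group, replicates 5 and 6 held 1.15% and 1.16%, and the other 3 held 0.888 to 0.956%. Reads of small-subunit genes relative to large-subunit genes were 0.633 ± 0.0136 in KO fasted, 0.636 ± 0.0143 in KO fed, 0.640 ± 0.00932 in fl/fl fasted and 0.637 ± 0.0138 in fl/fl fed livers. Over the 22 libraries this ratio ran only between 0.609 and 0.656.

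**Figure D2:**
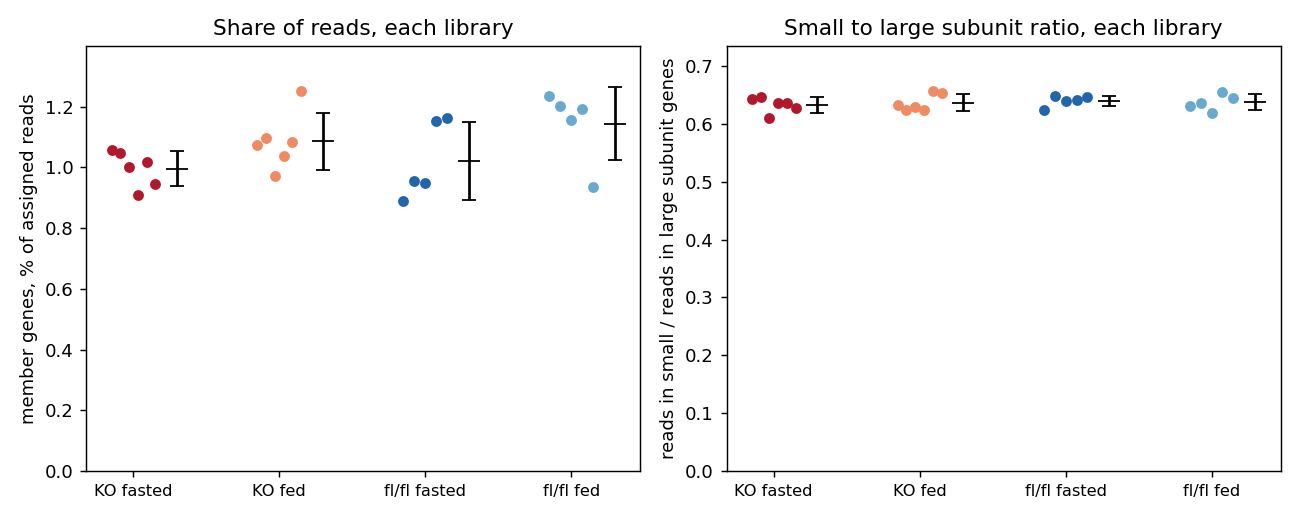
Left, percent of assigned reads in the 76 genes in each library, and right, reads in small-subunit genes divided by reads in large-subunit genes, with 1 point per library and the mean ± SD beside each group. The groups overlap in both panels, and the ratio stays between 0.609 and 0.656.

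The first comparison asked what an 18 h fast changes in livers with intact Gpt2. Rps4x, an X-linked protein of the small subunit, fell, and was the one member to pass the test. It had 112, 126, 123, 135 and 118 CPM in fl/fl fasted livers, against 148, 158, 154, 192 and 132 CPM in fl/fl fed livers. The groups overlapped by 1 fed library, replicate 5. The log2 fold change was -0.36 ± 0.10 (SE), with an adjusted p of 0.0252 in edgeR's quasi-likelihood test, adjusted after Benjamini and Hochberg over 16757 genes. The call was lost without fl/fl fed replicate 2 or 4 or without fl/fl fasted replicate 1, 3 or 6, with adjusted p between 0.0504 and 0.124 in those fits.

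Members called by fasting in fl/fl livers numbered 1 of 76, lower, when 8.12% of all genes tested were called, 4.13% lower and 3.99% higher. The share called was below the background, and 15 members had an unadjusted p under 0.05, all lower, against 9.74% of all genes lower at that p and 9.81% higher. DESeq2 called 4 members lower (Rps4x, Rplp0, Rpl13 and Rpsa), when it called 4.92% of all genes lower. Leaving out fl/fl fed replicate 5 gave 4 (Rps4x, Rpl10, Rps12 and Rpsa), all lower, when 3.49% of all genes were called lower. The median log2 fold change over members was -0.13, and 64 of 76 lay below 0, against a median of 0.00 over all genes, of which 49.7% lay below 0. In 558 other short and well expressed protein-coding genes the median was -0.10, and how far transcript length takes part in the members' shift was not tested.

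Rpsa, which also serves as a laminin receptor, had 312, 365, 298, 419 and 338 CPM in fl/fl fasted livers, against 435, 435, 425, 488 and 364 CPM in fl/fl fed livers. Its log2 fold change was -0.31 ± 0.10, with an adjusted p of 0.0643, and the groups overlapped. Rps12 had 130, 130, 104, 132 and 125 CPM in fl/fl fasted livers, against 164, 173, 160, 158 and 113 CPM in fl/fl fed livers. Its groups would be apart but for fl/fl fed replicate 5, and its adjusted p was 0.114. Rpl13, at -0.27 ± 0.10, had 150, 135, 161, 159 and 157 CPM in fl/fl fasted livers, against 207, 193, 171, 193 and 155 CPM in fl/fl fed livers. The largest positive value was that of Rps27, at 0.11 ± 0.15.

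In KO livers, 0 of 76 members were called by fasting, higher or lower, when 6.14% of all genes tested were called by edgeR's quasi-likelihood test, 2.88% higher and 3.26% lower. Rps12 alone had an unadjusted p under 0.05, lower, against 7.95% of all genes lower at that p. DESeq2 called 0 members too, when it called 7.65% of all genes. Rps12 had a lowest, median and highest value of 99.7, 112 and 135 CPM in KO fasted livers, against 116, 131 and 151 CPM in KO fed livers, with overlapping groups. Its log2 fold change was -0.22 ± 0.11, with an adjusted p of 0.29. Rpl35a, with 56.4, 67.5 and 78.8 CPM in KO fasted and 62.0, 77.3 and 106 CPM in KO fed livers, had -0.25 ± 0.13. The median over members was -0.09, with 56 of 76 below 0, against 0.01 over all genes and -0.02 over the other short genes.

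The intervals give the size of change each gene could have had. In KO livers every member's 95% interval for fasting lay within ±1 on the log2 scale, that is, within 2-fold, and so did every interval in fl/fl livers. Of all genes tested, 53.4% in KO and 49.2% in fl/fl livers had so narrow an interval around so small a value. Among the 558 other short and well expressed genes the shares were 87.5% and 84.4%. Mitochondrial ribosomal proteins had 98.7% and 93.4%, and respiratory chain subunits 97.3% and 95.9%. Within ±0.5, or 1.41-fold, lay 74 members in KO and 66 in fl/fl livers. The widest lower bounds were -0.57 for Rpl23a in KO livers and -0.64 for Rplp1 in fl/fl livers. No member had groups that did not overlap in either genotype, when 1.81% of all genes were higher and 2.15% lower without overlap in KO livers, and 3.87% higher and 4.03% lower in fl/fl livers.

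**Figure D3:**
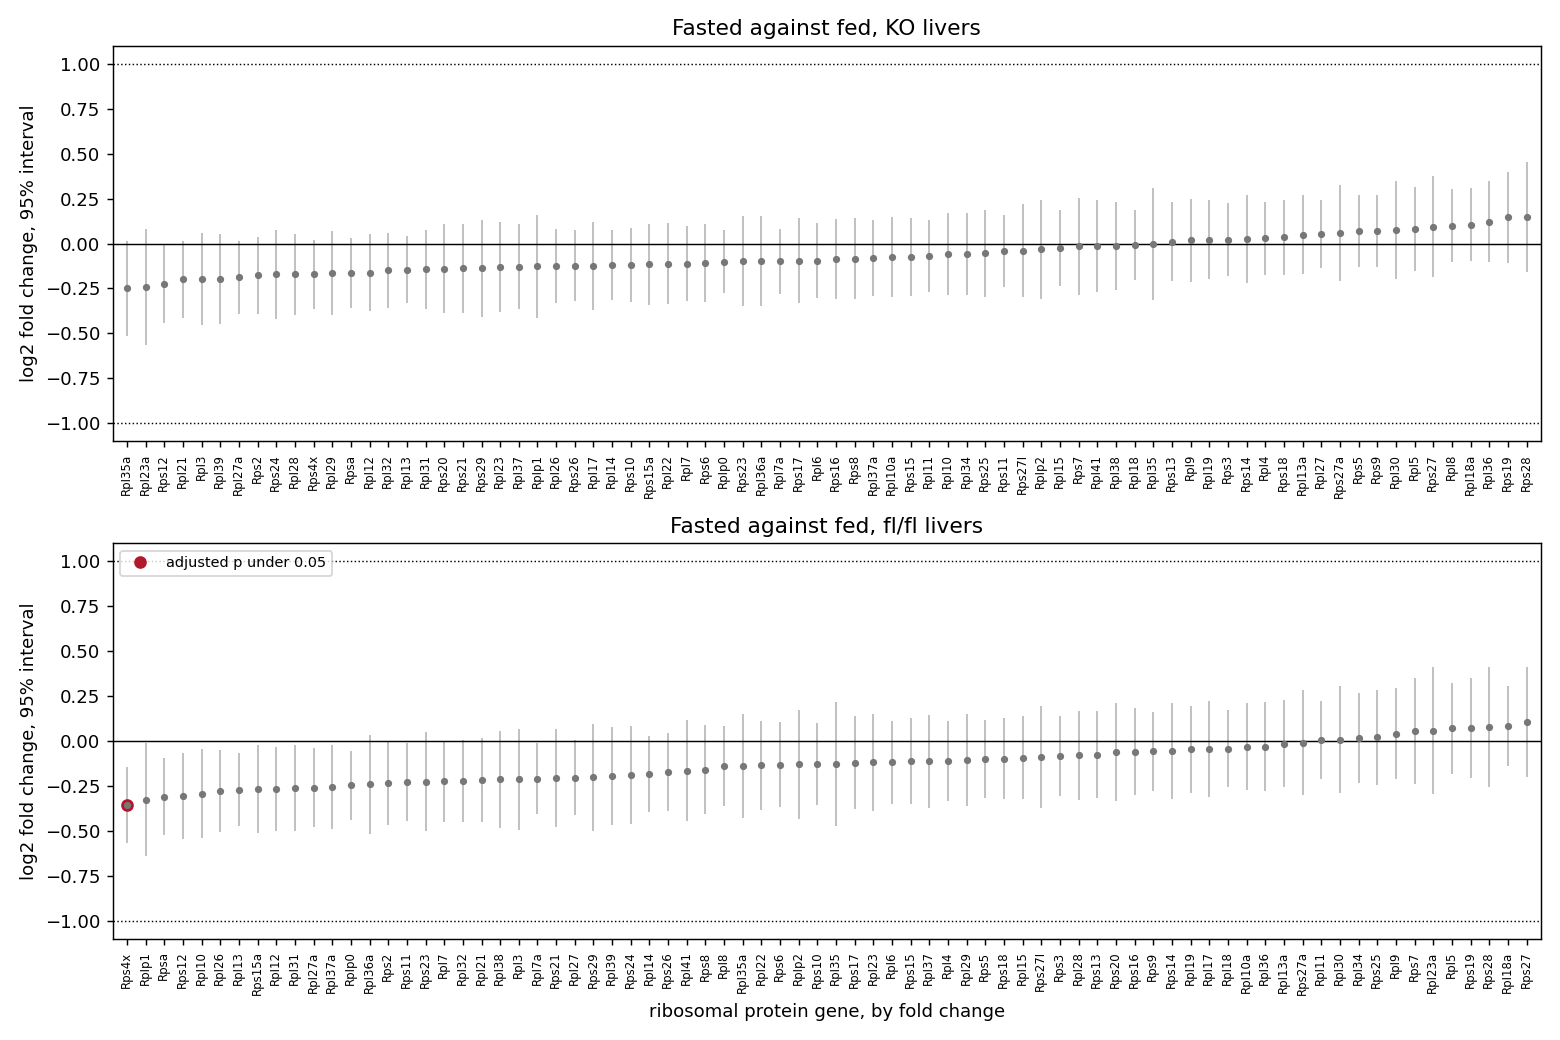
Log2 fold change of fasted over fed livers with its 95% interval for each of the 76 genes, KO above and fl/fl below, ordered within each panel, with dotted lines at ±1. Most points lie below 0 and all intervals lie between the dotted lines, and in the lower panel Rps4x, in red, passes the test.

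For the difference between the fasting effects, KO minus fl/fl, 0 members were called by edgeR's quasi-likelihood test when 0.00597% of all genes were. At an unadjusted p under 0.05 there were 0, against 4.69% of all genes. DESeq2 called 0 members, when it called 0.0358% of all genes. The median difference was 0.07. Among single members it ran between -0.30 for Rpl23a and 0.26 for Rpl27. All 76 intervals lay within ±1, and 64 lay within ±0.5.

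Since the difference was not called, fasting was also averaged over both genotypes in the same fit, a comparison added after the data had been seen. It called 5 of 76 members, all lower, when 14.3% of all genes tested were called, 7.26% lower and 7.08% higher. They were Rps4x at -0.26 ± 0.07, Rps12 at -0.26 ± 0.08, Rpsa at -0.24 ± 0.07, Rpl27a at -0.22 ± 0.07 and Rpl13 at -0.21 ± 0.07. Adjusted p was 0.00757, 0.0196, 0.0197, 0.0335 and 0.0327 in that order of genes, by edgeR's quasi-likelihood test. The share of members called was near the share of all genes called lower and below the share called in either direction. At an unadjusted p under 0.05 there were 22 members, all lower, against 12.3% of all genes lower and 24.8% in either direction. The call of Rps4x held in each of 32 alternative fits, that of Rps12 in 31, of Rpsa in 29, of Rpl13 in 22 and of Rpl27a in 20. The number called was 11 without fl/fl fed replicate 5 (6.58% of all genes lower), 10 without fl/fl fasted replicate 5 (6.53%), and 2 without fl/fl fed replicate 4 (6.65%) or fl/fl fasted replicate 3 (6.55%). It was 3 without fl/fl fed replicate 1 or 2, fl/fl fasted replicate 1 or 2, KO fed replicate 6 or KO fasted replicate 6. In those fits 6.58% to 6.91% of all genes were called lower.

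The values of these genes in KO livers were as follows, and none of them passed the test in KO livers alone. Rps4x had a lowest, median and highest value of 114, 119 and 137 CPM in KO fasted livers, against 128, 137 and 152 CPM in KO fed livers. Rpl27a, a large-subunit protein whose start holds the longest tract of those printed, had 154, 176 and 193 CPM in KO fasted livers, against 177, 193 and 233 CPM in KO fed livers. In fl/fl livers Rpl27a had 175, 173, 144, 191 and 184 CPM when fasted, against 218, 235, 200, 217 and 169 CPM when fed. Rpsa had 295, 337 and 367 CPM in KO fasted livers, against 355, 370 and 404 CPM in KO fed livers. All these groups overlapped.

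The comparison of genotypes asked what loss of Gpt2 changes. Between KO fed and fl/fl fed livers 0 of 76 were called by edgeR's quasi-likelihood test when 0.00597% of all genes were. DESeq2 called 0 members, when it called 0.382% of all genes. At an unadjusted p under 0.05 there were 5, all lower, against 3.63% of all genes lower and 5.37% higher. The smallest p belonged to Rpl27, Rps9 and Rpl8. Rpl27 had a lowest, median and highest value of 75.6, 81.9 and 89.4 CPM in KO fed livers, against 94.4, 111, 106, 105 and 80.2 CPM in fl/fl fed livers. All but replicate 5 of the fl/fl fed libraries were above the KO fed range. Its log2 fold change was -0.26 ± 0.10, with an adjusted p of 0.406. Rps9 was at -0.27 ± 0.10 and Rpl8 at -0.26 ± 0.10. The median over members was -0.11, with 63 of 76 below 0, and the median over the other short genes was -0.11 as well.

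Between KO fasted and fl/fl fasted livers 0 members were called when 0.00597% of all genes were. At an unadjusted p under 0.05 there were 0, against 4.01% of all genes. DESeq2 called 0 members, when it called 0.0179% of all genes. The median was -0.04, with 58 of 76 below 0. It was 0.02 without fl/fl fasted replicate 5 and 0.03 with the kidney-like library put back, so that the sign of this median rests on which libraries are used. Rpl28, with a tract across its listed start, had 114, 169 and 202 CPM in KO fasted livers, against 200, 193, 175, 188 and 202 CPM in fl/fl fasted livers, and a log2 fold change of -0.21 ± 0.12. All 76 intervals lay within ±1 in both comparisons of genotypes, against 54.8% of all genes in fed and 56.3% in fasted livers. In fed livers so did 92.5% of the other short genes and 97.3% of respiratory chain subunits. No member's groups failed to overlap, when 0.698% of all genes were higher and 0.477% lower without overlap in fed livers, and 0.310% and 0.179% in fasted livers.

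The stalk is the arm of the large subunit that binds elongation factors. Rplp0, its base, had 325, 347, 309, 317 and 324 CPM in fl/fl fasted livers, against 415, 428, 393, 358 and 332 CPM in fl/fl fed livers, a log2 fold change of -0.25 ± 0.09 with an edgeR adjusted p of 0.113. In KO livers it averaged 324 ± 19.9 CPM fasted and 347 ± 11 CPM fed (SD, n = 6 each). Rplp1 had 402, 385, 307, 422 and 370 CPM in fl/fl fasted livers, against 576, 518, 404, 470 and 396 CPM in fl/fl fed livers, and -0.33 ± 0.15. Rplp2 was at -0.13 ± 0.15 in fl/fl livers, and Rpl12, which binds the base of the stalk, was at -0.27 ± 0.11. None of these 4 genes passed the test.

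Rpl5 and Rpl11, which bind the smallest rRNA of the large subunit and, when free, the p53 inhibitor MDM2, had group means close to each other. Rpl5 averaged 123 ± 13.5 CPM in KO fasted, 116 ± 14.3 in KO fed, 126 ± 22.5 in fl/fl fasted and 120 ± 17.8 CPM in fl/fl fed livers. Rpl11 averaged 136 ± 13, 143 ± 8.34, 140 ± 17.9 and 139 ± 14.7 CPM in the same order of groups. For Rpl11 in fl/fl livers the log2 fold change of fasting was 0.00, with a 95% interval from -0.21 to 0.22. Rps6, the substrate of the S6 kinases downstream of mTORC1, averaged 130 ± 14.2 and 140 ± 15.3 CPM in KO fasted and fed livers, and 136 ± 18.3 and 149 ± 19.6 CPM in fl/fl fasted and fed livers. Rps27a, which is made as a fusion with ubiquitin, stayed between 75 and 78.5 CPM in the group means.

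Rps19, a protein needed for maturation of the small subunit and mutated in Diamond-Blackfan anaemia, averaged 64.9 ± 9.36 CPM in KO fasted, 58.7 ± 10.1 in KO fed, 65.9 ± 11.7 in fl/fl fasted and 62.6 ± 8.16 CPM in fl/fl fed livers. Its log2 fold changes of fasting, 0.15 ± 0.12 in KO and 0.08 ± 0.14 in fl/fl livers, were above 0 in both and did not pass the test. Rpl10 and Rpl38, large-subunit proteins studied for effects on the translation of particular mRNAs, were at -0.06 and -0.01 for fasting in KO, and at -0.29 and -0.21 in fl/fl livers, and neither passed. Rpl22 was at -0.11 and -0.14, and Rps25, at -0.06 and 0.02. Rpl41, the shortest ribosomal protein, averaged 189 ± 42.7 CPM in KO fasted, 191 ± 28.9 in KO fed, 182 ± 29.1 in fl/fl fasted and 204 ± 13.4 CPM in fl/fl fed livers.

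Several members are in use as reference genes for quantitative PCR. Rplp0 had the lowest spread of all members in KO fed and fl/fl fasted livers, with coefficients of variation of 6.1%, 3.2%, 4.3% and 10.4% in KO fasted, KO fed, fl/fl fasted and fl/fl fed livers. Rps18 had 6.8%, 8.3%, 11.2% and 16.2% in that order, Rpl13a 8.2%, 6.2%, 17.0% and 17.1%, and Rpl32 5.6%, 10.9%, 13.1% and 12.8%. For fasting, Rpl13a was at 0.05 in KO and -0.01 in fl/fl livers, Rps18 at 0.03 and -0.10, and Rpl32 at -0.15 and -0.22, and none passed the test. Rpl13a spans several small nucleolar RNA genes. In all, 29 members span at least 1 such gene and together hold 56. Whether reads of these RNAs entered the count of the host gene was not tested.

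Of the paralogs, Rps27l, which p53 induces, averaged 48.9 ± 9.54 CPM in KO fasted, 50.3 ± 8.19 in KO fed, 48.6 ± 7.05 in fl/fl fasted and 51.7 ± 5.06 CPM in fl/fl fed livers. Its partner Rps27 averaged 70.1 ± 12.9, 65.6 ± 13.5, 73.4 ± 11.4 and 68.2 ± 11.8 CPM in the same order. Rpl3 and Rpl39 averaged 162 ± 22.4 and 33.5 ± 5.37 CPM in KO fasted livers, whereas Rpl3l, of muscle, and Rpl39l, of testis, stayed under 1 CPM on average. Some ribosomal protein genes carry other names. Fau, whose product is a ubiquitin-like fusion with a small-subunit protein, was at 0.20 ± 0.12 for fasting in KO and 0.00 ± 0.13 in fl/fl livers. Rack1, a scaffold on the small subunit, was at -0.05 ± 0.10 and -0.07 ± 0.11. Rpl36al, a near copy of Rpl36a, passed the test for fasting averaged over genotypes, with a log2 fold change of -0.28 ± 0.10 and an edgeR adjusted p of 0.0470, and reads of such copies may be shared.

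Within each group the members varied less than most genes. The median coefficient of variation was 11.1% in KO fasted, 12% in KO fed, 13.4% in fl/fl fasted and 13.1% in fl/fl fed livers, against 29.6%, 28.0%, 29.1% and 32.1% over all genes tested. Over the genes in the members' range of levels it was 15.4%, 13.7%, 14.1% and 14.1%. Part of the spread was common to most members of a library. In fl/fl fed replicate 5 only 4 of 76 members lay above their group mean, and in fl/fl fasted replicate 3 only 6 did. In KO fed replicate 6 there were 68, and in fl/fl fasted replicate 5 there were 64.

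**Figure D4:**
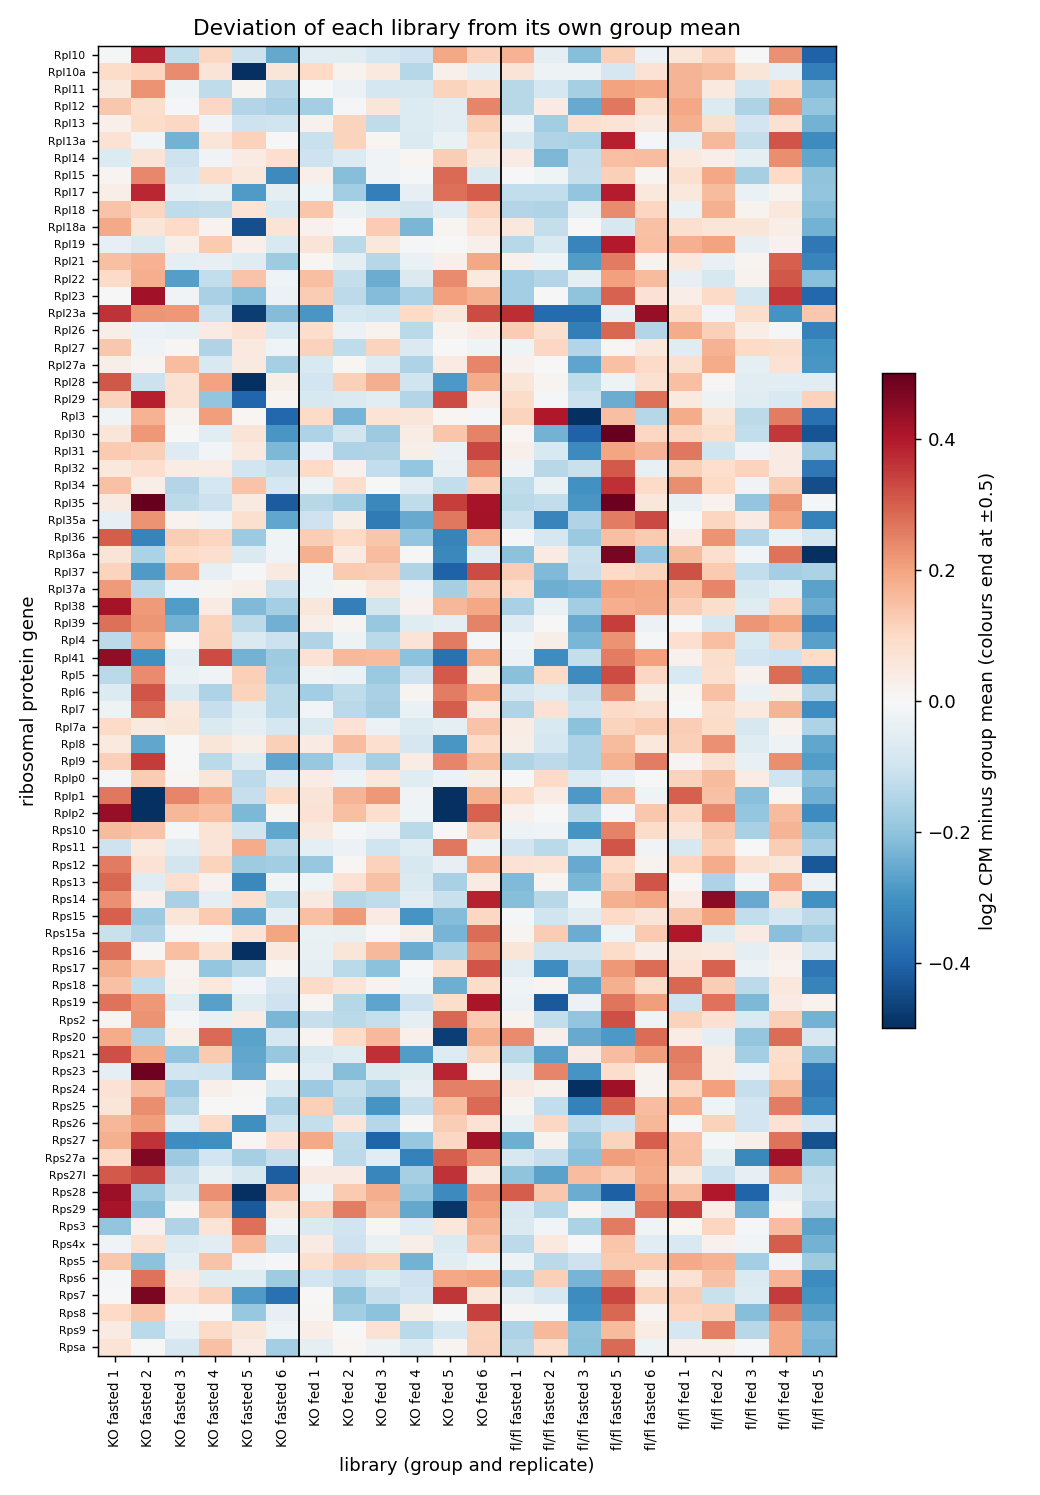
Log2 CPM of each of the 76 genes in each of the 22 libraries minus the mean of its group (colours end at ±0.5), with columns ordered KO fasted, KO fed, fl/fl fasted and fl/fl fed. The fl/fl fed replicate 5 column is blue nearly throughout, and KO fasted replicate 2 and KO fed replicate 5 show the same mixture of red and blue rows.

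KO fasted replicate 2 and KO fed replicate 5 departed from their groups gene by gene in the same way. Across the 76 genes the Spearman correlation of their deviations was 0.876, the highest of 181 pairs of libraries from different groups. The next pair had 0.615 and the median pair 0.0264. Rplp1 deviated from its group mean by -0.68 and -0.61 on the log2 scale in these libraries, and Rplp2 by -0.54 and -0.58. Rplp2 thus had 99.6 CPM in KO fasted replicate 2, against 124 to 196 CPM in the other KO fasted livers, and 99.8 CPM in KO fed replicate 5, against 147 to 183 CPM in the other KO fed livers. Rps23, a protein of the decoding site, had 112 CPM in both, against 66.9 to 80.2 and 74.0 to 86.5 CPM in the rest of these groups.

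Among the 12 lowest members of each of these libraries 10 were shared: Rplp1, Rplp2, Rpl36, Rpl41, Rpl37, Rpl8, Rps29, Rps28, Rpl36a and Rps20. Of the 12 highest, 7 were shared: Rpl35, Rps23, Rps7, Rps27a, Rpl29, Rpl17 and Rps27l. The shared low members had a median principal mRNA of 460 bases and 54.3% G and C, and the shared high ones 775 bases and 48.5%, with 705 bases and 51.9% over all members. Rps20, among the shared low members, had a principal mRNA of 3706 bases. Across members the correlation of the deviation with G and C content was only -0.302 and -0.309, and between -0.343 and 0.324 in the other libraries. With mRNA length the correlation was 0.201 and 0.296, and between -0.59 and 0.286 in the other libraries. Both libraries also had the highest mitochondrial shares, given above. Reads in named ribosomal protein pseudogenes came to 1.30% and 1.52% of the members' sum there, and to between 2.42% and 3.23% in the other 20. What sets these libraries apart was not tested. Without both, the members called were 0 for fasting in KO, 1 for fasting in fl/fl, 0 in both genotype comparisons and 4 for fasting averaged over genotypes. Of all genes, 4.75%, 7.91% and 12.9% were then called for fasting in KO, in fl/fl and averaged, and 0.00602% in each genotype comparison.

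Ribosome biogenesis factors, which make and assemble the subunits in the nucleolus, rose with fasting in 5 of 41 cases in KO livers, when 2.88% of all genes were called higher, and none fell. In fl/fl livers 2 of 41 rose, near the 3.99% of all genes called higher there, and none fell. Their median log2 fold change was 0.27 in KO, with 36 of 41 above 0, and 0.21 in fl/fl livers, with 33 above 0. Eif6, which keeps free large subunits from joining, averaged 53.7 ± 7.35 CPM in KO fasted and 37.9 ± 4.29 CPM in KO fed livers, and 58.1 ± 9.46 CPM in fl/fl fasted and 37.1 ± 2.84 CPM in fl/fl fed livers. Its log2 fold changes were 0.50 ± 0.11 and 0.65 ± 0.13, with adjusted p of 0.00391 and 0.000554 by edgeR's quasi-likelihood test. Ddx21 and Rrp12, of rRNA processing, and Polr1a, the largest subunit of RNA polymerase I, rose in KO livers by 0.50 ± 0.13, 0.73 ± 0.21 and 0.42 ± 0.12. Ubtf, which recruits that polymerase, rose in fl/fl livers by 0.39 ± 0.11. With fasting averaged over genotypes 11 of 41 were called higher and 0 lower, when 7.08% of all genes were called higher.

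Translation factors and other mRNAs with such a tract rose in 2 of 22 cases in KO livers, when 2.88% of all genes were called higher, and in 2 in fl/fl livers, when 3.99% were. Both were Nap1l1, a histone chaperone, at 0.58 ± 0.15 and 0.63 ± 0.16, and Pabpc1, the poly(A)-binding protein, at 0.31 ± 0.10 and 0.33 ± 0.11. Eef1g, a subunit of elongation factor 1, fell in fl/fl livers by 0.32 ± 0.10, with an edgeR adjusted p of 0.0433. Among 28 genes of mTORC1 and its control of translation, 1 was called higher and 3 lower in KO livers, and 2 lower in fl/fl livers. Of all genes, 2.88% were called higher and 3.26% lower in KO livers, and 4.13% lower in fl/fl livers. Pdcd4, an inhibitor of the helicase eIF4A, fell by 0.91 ± 0.13 in KO and 0.70 ± 0.14 in fl/fl livers. Eef2k, the kinase that inactivates elongation factor 2, fell by 0.74 ± 0.22 and 1.08 ± 0.24. Tsc1, a brake on mTORC1, fell in KO livers by 0.45 ± 0.14, and Nprl3, a subunit of the amino acid-sensing GATOR complex, rose there by 0.69 ± 0.17.

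Mitochondrial ribosomal proteins, 76 of which were tested, had medians for fasting of -0.11 in KO and -0.08 in fl/fl livers. Mrpl17 rose and Mrps27 fell in KO livers, when 2.88% of all genes were called higher and 3.26% lower. In fl/fl livers 2 fell (Mrps27 and Mrps15), when 4.13% of all genes were called lower. Respiratory chain subunits had medians of 0.04 and -0.06. Of 74, 0 were called in either genotype, when 6.14% of all genes were called in KO and 8.12% in fl/fl livers. At an unadjusted p under 0.05 there were 2 and 7, against 15.98% and 19.55% of all genes. In KO fed over fl/fl fed livers the median was -0.11 for ribosomal proteins and -0.13 for biogenesis factors. It was -0.08 for mitochondrial ribosomal proteins and -0.14 for respiratory chain subunits. No gene of these lists was called, when 0.00597% of all genes were.

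**Figure D5:**
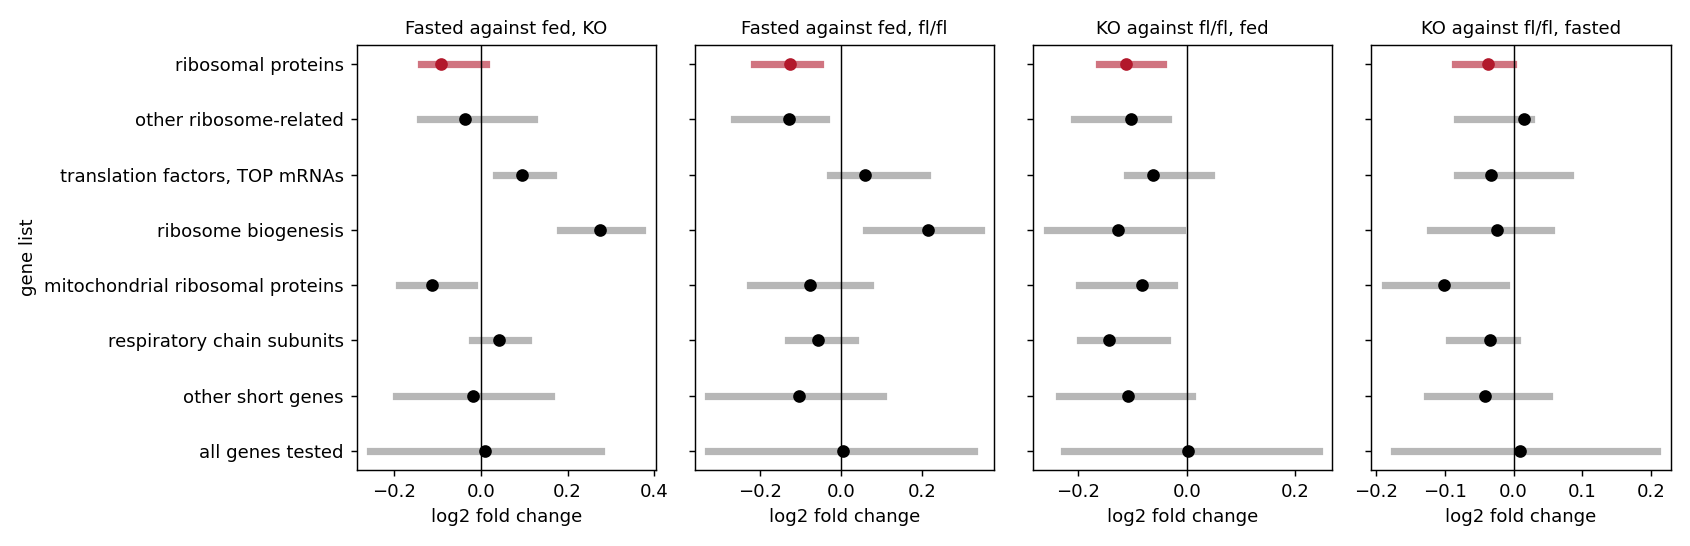
Median log2 fold change (points) and interquartile range (bars) of the ribosomal protein genes, in red, and of other gene lists, in 4 comparisons. For fasting the biogenesis factors lie to the right of 0, at 0.27 in KO and 0.21 in fl/fl livers, while the ribosomal proteins lie to its left, at -0.09 and -0.13.

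Markers of other cells moved with some of these groups. Their sums are given in CPM without TMM scaling. Of all genes tested, fasting called 2.88% higher and 3.26% lower in KO livers, and 3.99% higher and 4.13% lower in fl/fl livers. The summed level of 10 Kupffer cell and macrophage markers, all detected, ran between 168 and 348 CPM in KO fasted, 220 and 314 in KO fed, 151 and 181 in fl/fl fasted, and 159 and 258 CPM in fl/fl fed livers. All 10 were above 0 in KO fasted over fl/fl fasted livers, with a median of 0.68, and 0 were called. Endothelial markers, of which 1 of 8 was called higher by fasting in each genotype, summed to 166 to 273 CPM in KO fasted, 185 to 248 in KO fed, 146 to 190 in fl/fl fasted, and 117 to 189 CPM in fl/fl fed livers. All 8 were above 0 in KO fed over fl/fl fed livers, with a median log2 fold change of 0.59, and 0 were called. Of these 8, 5 had an unadjusted p under 0.05, all higher, against 5.37% of all genes higher. Stellate cell markers, of which 1 of 8 was called lower by fasting in KO and 2 of 8 in fl/fl livers, summed to 89.2 to 155 CPM in KO fasted, 145 to 197 in KO fed, 80.9 to 117 in fl/fl fasted, and 116 to 156 CPM in fl/fl fed livers. Exocrine pancreas markers summed to 6.01 to 8.27 CPM in KO fasted and 11.9 to 31.3 in KO fed livers. In fl/fl livers they summed to 3.26 to 9.11 CPM fasted and 26.6 to 38.7 CPM fed. Of these 10 markers Try4, Pnlip, Clps and Amy2a5 were at 0. Only 1 reached a mean of 1 CPM, so that the sum does not speak for the whole list. Of the 2 tested, 1 was called lower by fasting in each genotype. Erythroid markers summed to 341 to 672 CPM in KO fasted, 259 to 485 in KO fed, 269 to 597 in fl/fl fasted, and 287 to 616 CPM in fl/fl fed livers. For fasting in KO livers all 5 tested had an unadjusted p under 0.05, 4 of them higher, with a median of 0.65, and 1, Alas2 of haem synthesis, was called, lower. In fl/fl livers Alas2 was again called lower, and the median was -0.16. The part of these cells in the values of the ribosomal protein genes was not tested.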

How the data were processed

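RNA-seq of mouse liver was deposited as 1 table per library. The authors' files hold raw read counts per gene, which per the submitters' processing notes came from STAR 2.5.1a and featureCounts 1.4.6-p5 (Subread) on build GRCm38. The deposited CPM and RPKM columns follow from the counts, each library's total and the gene length in the file, and only the counts were used. Replicates are libraries, and p-values measure the spread between them.

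Counts of 22 libraries in 4 groups were fitted together with edgeR 4.0.16 (robust quasi-likelihood, TMM factors, filterByExpr with a minimum count of 10 and a minimum total of 15) in R 4.3.3, with Benjamini-Hochberg adjustment over all 16757 genes tested and a threshold of 0.05. The alternatives used DESeq2 1.42.0 and limma 3.58.1, other scalings and filters, and each library left out in turn. The fits were tested on simulated data. Standard errors were derived from the fold change and its F statistic. Library depth was 18390437 to 55284550 assigned reads.

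The members, the gene lists and the genes named were chosen with earlier results of these data known, and the sequence windows after values had been seen. Named members were those fixed by role (stalk, paralogs, reference genes and the like), up to 5 called members per direction or else the 3 with the smallest p per comparison, and the 3 highest and lowest by RPKM. Of other lists up to 4 genes with the smallest p were taken. Rps23, Rpl23a, Rps10, Rpl15 and the genes listed for the 2 libraries that stand together were named after their values were seen. Lymphocyte, neutrophil, erythroid and cell division markers reached a mean of 1 CPM in 3 of 10, 1 of 6, 5 of 6 and 4 of 10 cases.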

Additional observations from a re-analysis of the deposited data

Results flagged for a closer look

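Single libraries stood apart from the rest of their group, by Dixon's criterion, in 11 of 144 groups of values tested (7.64%), when chance flags about 1 in 20. In fl/fl fed replicate 5 the members' share of reads was 0.937%, Rpl32 was at 87.5 CPM and Rps12 at 113 CPM, all below the other fl/fl fed libraries. In fl/fl fasted replicate 5 Rpl13a was at 358 CPM and Rpl32 at 119 CPM, above the others, and in fl/fl fasted replicate 3 Rps12 was at 104 CPM, below them. In KO fed replicate 5 Rplp1 was at 253 CPM and Rps18 at 143 CPM, and in KO fasted replicate 2 Rpl8 was at 243 CPM, all below the rest. Rpl3 was at 158 CPM in KO fed replicate 2, below the others, and Rpl28 at 224 CPM in fl/fl fed replicate 1, above them.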

How the results depend on the processing

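Fasting in fl/fl livers called 1 member. It called 0 with library totals, without a filter beyond 1 count or with only the groups compared, 2 with libraries of like title number as random blocks and 4 by DESeq2. Of all genes, 8.12% were called, and 7.41%, 4.36%, 8.44%, 8.31% and 9.75% in that order of alternatives. Leaving out 1 library gave 0 to 4 members, when 6.32% to 8.61% of all genes were called. Fasting averaged over genotypes called 5 members, and 8 with library totals, 3 without the filter and 2 with 23 libraries. Of all genes, 14.3%, 13.4%, 9.25% and 8.97% were called in the same order. Leaving out 1 library gave 2 to 11 members, when 12.8% to 14.8% of all genes were called. The cause was not tested. The other 4 counts of members stayed at 0 in every alternative run, and no result turned its direction past the threshold. Rps4x in fl/fl livers had adjusted p between 0.0107 and 0.124 over 33 alternatives and was called in 25. Over all genes, 23 libraries gave 379 calls against 1029 for fasting in KO, 805 against 1360 in fl/fl and 1529 against 2404 averaged. For KO over fl/fl in fed livers 1 gene was called, but 64 by DESeq2, 14 without the filter, 5 with library totals and up to 13 with 1 library left out. DESeq2 called 3 genes for KO over fl/fl in fasted livers and 6 for the interaction, against 1 each. No title number occurs in more than 1 group, so libraries could not be paired one to one, and the random blocks above, with a correlation of -0.0128 within blocks, are the nearest such fit.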
